A study of Populus trichocarpa with 12 samples.

Results

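Coumarate-CoA ligase (4CL) and hydroxycinnamoyltransferase (HCT) catalyse neighbouring steps of monolignol synthesis, the pathway that makes the building blocks of lignin. The identifiers were taken by name from the deposited count table: Potri.001G036900 (Ptr4CL3), Potri.003G188500 (Ptr4CL5), Potri.003G183900 (PtrHCT1) and Potri.001G042900 (PtrHCT6). They are 4 of 41335 gene identifiers, and all 4 passed the filter on low counts. The gene designations are published ones, and the table itself gives identifiers only.

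RNA was sequenced from stem differentiating xylem of Populus trichocarpa (black cottonwood), the layer of young wood scraped from a debarked stem, from trees grown in soil in a greenhouse for 3 months. No transgene or genotype is given for these libraries, and the 4 libraries of a group differ only by replicate number. On day 0 the plants were fully irrigated, with 74% water in the soil and 80.6% in the xylem. Day 5 plants had gone 5 days without watering, a mild drought state with 33% soil water and 75.3% xylem water. Day 7 plants had gone 7 days without watering, a severe drought state with 29% and 74.3%. Each day has 4 libraries, and the water contents are single values per day. Plants watered until day 5 or day 7 were not analysed here, so drought cannot be told apart from plant age and day of harvest. Nothing in the labels says which plants or how many went into a library, so p-values measure the spread between these libraries.

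Lignin stiffens and waterproofs the secondary walls of vessels and fibres in wood. 4CL joins coenzyme A to hydroxycinnamic acids, chiefly p-coumaric and caffeic acid, which activates them for the steps that follow. HCT transfers the p-coumaroyl group from coenzyme A to shikimate, giving the ester that the 3-hydroxylase C3H acts on, and can also return the caffeoyl group from shikimate to coenzyme A. Both enzymes lie upstream of the reductions that yield the monolignols.

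The libraries held between 9.35 and 19.2 M counts each. The 4 genes had between 271 and 33858 reads in every library, so counting error alone was 0.543% to 6.07% of a value, whereas libraries of 1 day differed with a coefficient of variation of 12.9% to 67.3%. Levels below are counts per 1 M counts (CPM) after scaling by the trimmed mean of M values. CPM is not divided by gene length, so it is used to compare 1 gene between days and not 1 gene with another. The 5 secondary wall cellulose synthase (CesA) genes, markers of wood-forming xylem, had reads in all 12 libraries. Their summed level was 2762 to 10182 CPM on day 0, 503 to 1932 CPM on day 5 and 103 to 820 CPM on day 7. The highest libraries of day 0 and of day 7 were replicate 2 of each, at 10182 and 820 CPM, against at most 5318 CPM in the other day 0 libraries and at most 120 CPM in the other day 7 libraries. In bulk tissue, fewer wood-forming cells and less RNA per cell cannot be told apart.

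All 4 genes fell in both drought states. Their summed share of all normalised counts averaged 0.298% ± 0.0748 on day 0, 0.0840% ± 0.0176 on day 5 and 0.0331% ± 0.0159 on day 7 (SD, n = 4 each). On day 5 all 4 were lower than on day 0 (edgeR quasi-likelihood test, Benjamini-Hochberg adjusted p under 0.05 over 26943 tested genes), a comparison in which 28.8% of all tested genes were called lower. On day 7 all 4 were again lower than on day 0, a comparison in which 23.6% of tested genes were called lower. Between day 7 and day 5, 3 of the 4 were lower on day 7, and PtrHCT1 did not pass the test; 19.9% of tested genes were called lower there. The same 3 genes were lower in all 3 comparisons, as were 2.16% of tested genes. The comparisons share libraries and are not independent of each other.

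**Figure D1:**
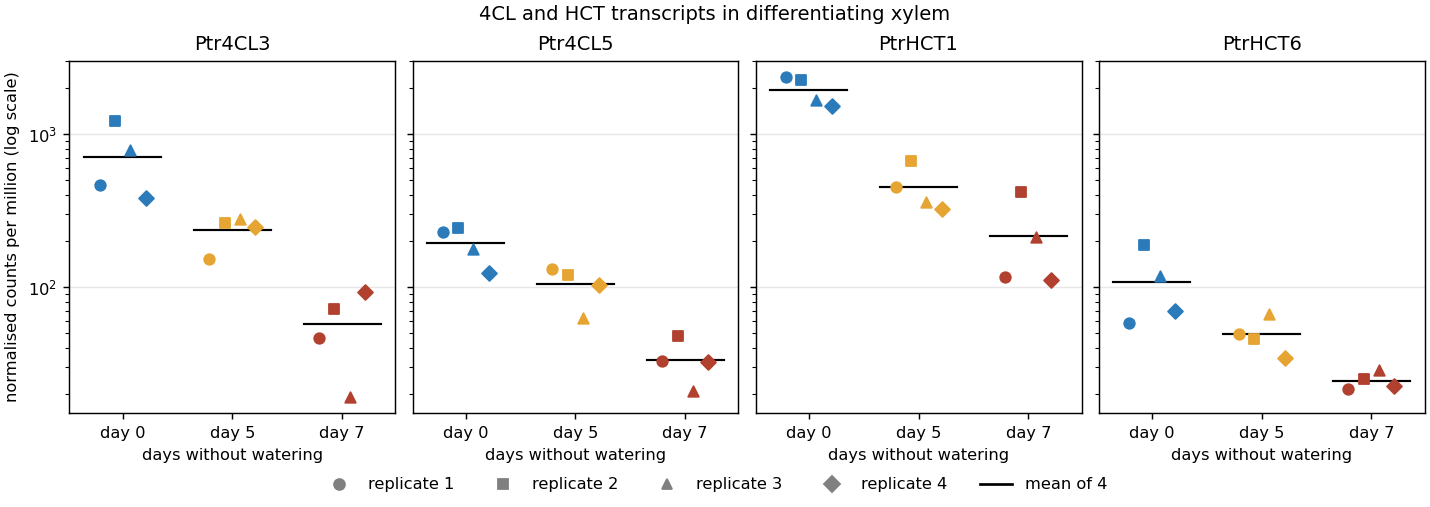
Normalised counts (CPM, log axis) of Ptr4CL3, Ptr4CL5, PtrHCT1 and PtrHCT6 in the 12 libraries on days 0, 5 and 7, with marker shapes for replicate numbers and a line at the mean of 4. Every day 7 library lies below every day 0 library for each of the 4 genes, while PtrHCT1 in day 7 replicate 2, at 422 CPM, lies within the day 5 range.

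Ptr4CL3, the first of the ligase genes, had 463, 1226, 786 and 385 CPM in day 0 replicates 1 to 4. It had 152, 264, 280 and 248 CPM in day 5 replicates 1 to 4, and 46.6, 71.7, 19.1 and 92.4 CPM in day 7 replicates 1 to 4. The 3 days did not overlap, and day 0 replicate 2 and day 7 replicate 3 were the extremes of their days.

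Ptr4CL3 averaged 236 ± 57.5 CPM on day 5 and 715 ± 382 CPM on day 0 (SD, n = 4 each). This was a log2 fold change of -1.60 ± 0.48 (SE; 95% interval -2.64 to -0.56; edgeR adjusted p = 0.013), or 3.03-fold lower. The change was smaller but still called without day 0 replicate 2, at -1.20 (edgeR adjusted p = 0.0436), and without day 5 replicate 1, at -1.41 (edgeR adjusted p = 0.0408). On day 7 the gene averaged 57.5 ± 31.7 CPM, with a log2 fold change of -3.64 ± 0.52 against day 0 (SE; 95% interval -4.77 to -2.51; edgeR adjusted p = 0.00017), or 12.4-fold lower. Only 3.26% of tested genes had a more negative log2 fold change in that comparison. The step between the drought states was also called, at -2.04 ± 0.48 on day 7 relative to day 5 (SE; 95% interval -3.10 to -0.98; edgeR adjusted p = 0.00632).

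Ptr4CL5, the other ligase gene, had 228, 245, 177 and 123 CPM in day 0 replicates 1 to 4. It had 131, 121, 62.5 and 103 CPM in day 5 replicates 1 to 4, and 32.9, 47.9, 20.8 and 32.4 CPM in day 7 replicates 1 to 4. Day 5 replicate 1 lay above the lowest day 0 library, so days 5 and 0 overlapped, whereas day 7 lay below both.

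Ptr4CL5 averaged 104 ± 30.3 CPM on day 5 and 194 ± 55.0 CPM on day 0 (SD, n = 4 each), a log2 fold change of -0.89 ± 0.30 (SE; 95% interval -1.55 to -0.23; edgeR adjusted p = 0.0245), or 1.85-fold lower. It was the smallest day 5 change of the 4 genes. The call depended on single libraries: edgeR's adjusted p was 0.059 without day 0 replicate 1, 0.0677 without day 0 replicate 2, 0.0616 without day 5 replicate 3 and 0.0533 without day 5 replicate 4, with log2 fold changes of -0.80, -0.75, -0.71 and -0.88. On day 7 the gene averaged 33.5 ± 11.1 CPM, with a log2 fold change of -2.53 ± 0.32 against day 0 (SE; 95% interval -3.22 to -1.84; edgeR adjusted p = 7.69e-05), or 5.78-fold lower. Relative to day 5, day 7 was lower by a log2 fold change of -1.64 ± 0.31 (SE; 95% interval -2.32 to -0.97; edgeR adjusted p = 0.00182).

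PtrHCT1 had 2370, 2259, 1686 and 1543 CPM in day 0 replicates 1 to 4. It had 449, 669, 360 and 323 CPM in day 5 replicates 1 to 4, and 116, 422, 213 and 112 CPM in day 7 replicates 1 to 4. Both drought days lay wholly below day 0, and day 7 replicate 2 reached into the day 5 range.

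PtrHCT1 averaged 450 ± 155 CPM on day 5 and 1965 ± 411 CPM on day 0 (SD, n = 4 each). This log2 fold change of -2.12 ± 0.43 (SE; 95% interval -3.06 to -1.19; edgeR adjusted p = 0.00141), or 4.36-fold lower, was the largest day 5 change of the 4 genes. On day 7 it averaged 216 ± 145 CPM, with a log2 fold change of -3.19 ± 0.45 against day 0 (SE; 95% interval -4.17 to -2.21; edgeR adjusted p = 0.000159), or 9.11-fold lower.

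Between the drought days PtrHCT1 did not pass the test. The log2 fold change of day 7 relative to day 5 was -1.06 ± 0.42 (SE; 95% interval -1.97 to -0.15 before adjustment; edgeR adjusted p = 0.0588). Without day 7 replicate 2, the day 7 library with the most PtrHCT1 and the most CesA transcripts, it was -1.61 and passed (edgeR adjusted p = 0.00481). It passed too with DESeq2 (adjusted p = 0.0248), with limma-voom (adjusted p = 0.0299) and with replicate number as a block (edgeR adjusted p = 0.0155). The part of that library's make-up in this result was not tested beyond leaving it out.

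PtrHCT6, the other transferase gene, had 58.0, 188, 118 and 70.2 CPM in day 0 replicates 1 to 4. It had 49.6, 45.5, 67.1 and 34.6 CPM in day 5 replicates 1 to 4, and 21.6, 24.9, 28.7 and 22.6 CPM in day 7 replicates 1 to 4. Day 5 replicate 3 lay above the lowest day 0 library, whereas day 7 lay below both other days and varied least of all 4 genes on any day, by a coefficient of variation of 12.9%.

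PtrHCT6 averaged 49.2 ± 13.5 CPM on day 5 and 108 ± 58.7 CPM on day 0 (SD, n = 4 each), a log2 fold change of -1.14 ± 0.33 (SE; 95% interval -1.87 to -0.41; edgeR adjusted p = 0.0118), or 2.20-fold lower. Without day 0 replicate 2 it was -0.73 (edgeR adjusted p = 0.0364). On day 7 the gene averaged 24.5 ± 3.15 CPM, with a log2 fold change of -2.15 ± 0.34 against day 0 (SE; 95% interval -2.90 to -1.40; edgeR adjusted p = 0.000369), or 4.43-fold lower. Relative to day 5, day 7 had a log2 fold change of -1.01 ± 0.33 (SE; 95% interval -1.74 to -0.28; edgeR adjusted p = 0.0307). This last call was lost without any 1 of 5 libraries: edgeR's adjusted p was 0.0536 without day 5 replicate 1, 0.0873 without day 5 replicate 3, 0.0699 without day 7 replicate 1, 0.0551 without day 7 replicate 2 and 0.0595 without day 7 replicate 4.

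Taken library by library, Ptr4CL3 and PtrHCT1 were lower in every day 5 library than in any day 0 library, as were 27.0% of tested genes. All 4 genes were lower in every day 7 library than in any day 0 library, as were 21.6% of tested genes. Ptr4CL3, Ptr4CL5 and PtrHCT6 were lower in every day 7 library than in any day 5 library, as were 18.6% of tested genes. The order day 0, day 5, day 7 from high to low held for the means of all 4 genes. Neighbouring days overlapped for Ptr4CL5 and PtrHCT6 between days 0 and 5 and for PtrHCT1 between days 5 and 7.

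**Figure D2:**
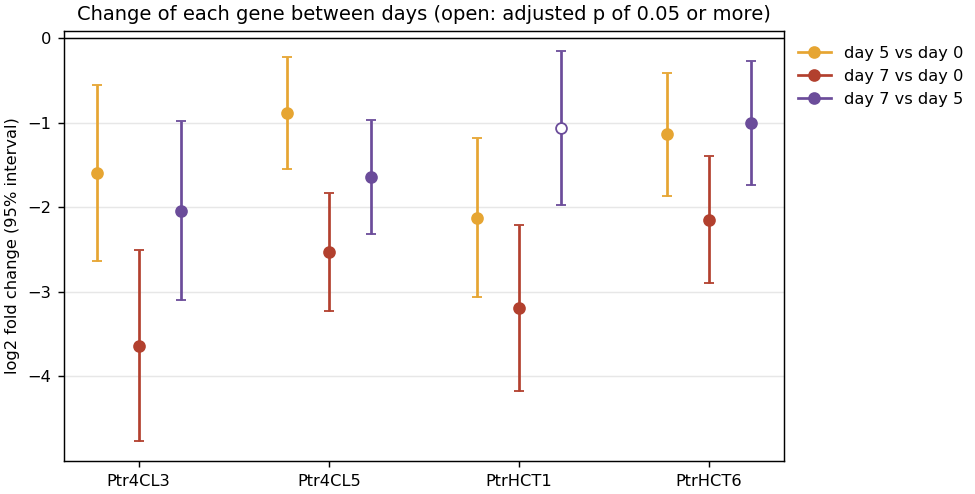
Log2 fold changes of the 4 genes in 3 comparisons (day 5 against day 0, day 7 against day 0, day 7 against day 5), with 95% intervals from edgeR before adjustment; filled points had an adjusted p under 0.05. All 12 changes are negative, from -3.64 for Ptr4CL3 to -0.89 for Ptr4CL5, and the single open point is PtrHCT1 on day 7 against day 5.

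The 4 genes did not share an order of libraries within a day. On day 0, replicate 2 was highest for Ptr4CL3, Ptr4CL5 and PtrHCT6, and replicate 1 was highest for PtrHCT1 but lowest for PtrHCT6. On day 5, replicate 3 was highest for Ptr4CL3 and PtrHCT6 and lowest for Ptr4CL5, and replicate 2 was highest for PtrHCT1. On day 7, replicate 3 was lowest for both ligase genes, at 19.1 CPM for Ptr4CL3 and 20.8 CPM for Ptr4CL5, but highest for PtrHCT6 at 28.7 CPM.

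Ratios between genes of the same library asked whether the copies of each enzyme moved by unequal amounts, since such ratios need no library scaling. Tests numbered 9 (3 ratios, 3 pairs of days) with two-sided exact permutation tests of 4 against 4 libraries, where the smallest possible p is 0.0286. None passed, before or after adjustment over the 9. A single ratio at that smallest p could not have passed after adjustment over the 9. Failing there is therefore not evidence that the copies moved equally. The intervals given are those of the exact test, at 97.1% confidence.

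Ptr4CL5 made up 41.4%, 40.1%, 52.1% and 26.0% of the reads of both ligase genes in day 7 replicates 1 to 4, against 33.0%, 16.7%, 18.4% and 24.3% in day 0 replicates 1 to 4. In day 5 replicates 1 to 4 the share was 46.3%, 31.4%, 18.2% and 29.4%. The share overlapped between all days, and day 5 spanned most of the range of the other 2.

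The log2 ratio of Ptr4CL5 to Ptr4CL3 averaged -0.62 ± 0.67 on day 7 and -1.78 ± 0.58 on day 0 (SD, n = 4 each), a difference of 1.16 (interval -0.49 to 2.44; exact permutation p = 0.0571, adjusted p = 0.257). On day 5 it averaged -1.19 ± 0.80, which differed from day 0 by 0.59 (interval -1.14 to 2.11; exact permutation p = 0.314, adjusted p = 0.404). Day 7 exceeded day 5 by 0.57 (interval -1.30 to 2.29; exact permutation p = 0.314). A larger fall of Ptr4CL3 than of Ptr4CL5 was thus not shown, and the intervals leave room for changes of the ratio in either direction.

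PtrHCT6 made up 9.95%, 6.37%, 15.7% and 9.67% of the reads of both transferase genes in day 5 replicates 1 to 4, against 2.39%, 7.66%, 6.54% and 4.35% in day 0 replicates 1 to 4. In day 7 replicates 1 to 4 it made up 15.7%, 5.58%, 11.9% and 16.9%. Day 7 replicate 2 and day 5 replicate 2 were the drought libraries within the day 0 range.

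The log2 ratio of PtrHCT6 to PtrHCT1 averaged -3.18 ± 0.60 on day 5 and -4.31 ± 0.79 on day 0 (SD, n = 4 each), a difference of 1.13 (interval -0.29 to 2.93; exact permutation p = 0.0857, adjusted p = 0.257). On day 7 it averaged -2.93 ± 0.81 and differed from day 0 by 1.38 (interval -0.49 to 3.05; exact permutation p = 0.0857, adjusted p = 0.257). Days 7 and 5 differed by 0.25 (interval -1.66 to 1.57; exact permutation p = 0.571).

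The 2 families were then set against each other. The log2 ratio of summed HCT to summed 4CL levels averaged 0.51 ± 0.41 on day 5 and 1.28 ± 0.54 on day 0 (SD, n = 4 each), a difference of -0.77 (interval -1.78 to 0.16; exact permutation p = 0.114, adjusted p = 0.257). On day 7 it averaged 1.35 ± 1.11, a difference of 0.84 from day 5 (interval -0.79 to 2.57; exact permutation p = 0.286) and of 0.07 from day 0 (interval -1.71 to 1.86; exact permutation p = 0.857). These tests did not tell the 2 summed levels apart. The sums weight genes by read number, and PtrHCT6 averaged 5.23%, 10.4% and 12.5% of HCT reads on days 0, 5 and 7. Ptr4CL5 averaged 23.1%, 31.3% and 39.9% of 4CL reads, so on average PtrHCT1 and Ptr4CL3 weighed most in the ratio. Day 7 libraries spread widely, with log2 ratios of 0.79, 1.90, 2.60 and 0.10 in replicates 1 to 4.

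**Figure D3:**
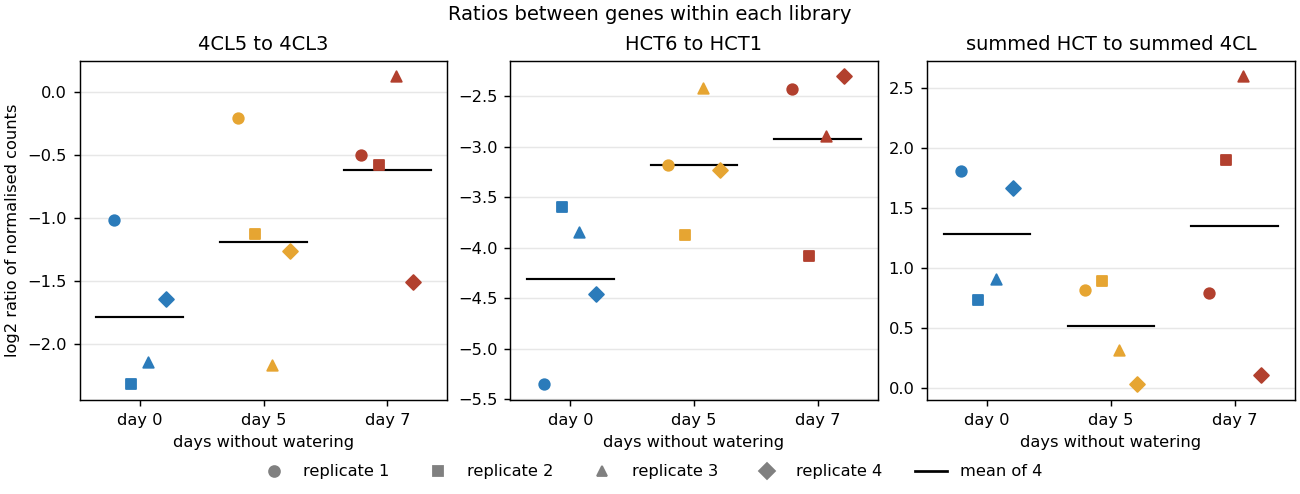
Log2 ratios of normalised counts within each library, for Ptr4CL5 to Ptr4CL3, PtrHCT6 to PtrHCT1 and summed HCT to summed 4CL, on days 0, 5 and 7; shapes mark replicate numbers and lines the mean of 4. The days overlap in all 3 panels, and the means of the first panel are -1.78, -1.19 and -0.62.

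Other genes of the monolignol pathway gave the setting of these changes. A list of 17 other genes with published designations covered phenylalanine ammonia-lyase (PAL), cinnamate hydroxylase (C4H), coumaroyl shikimate hydroxylase (C3H), caffeoyl shikimate esterase (CSE), caffeoyl-CoA methyltransferase (CCoAOMT), cinnamoyl-CoA reductase (CCR), coniferaldehyde hydroxylase (CAld5H) and cinnamyl alcohol dehydrogenase (CAD). On day 5 against day 0, 11 of the 17 were lower and 6 were not called, with a median log2 fold change of -1.23, against -1.37 for the 4 ligase and transferase genes and -0.01 for all tested genes. On day 7 against day 0, 16 of the 17 were lower and 1 was not called, with a median of -2.64, against -2.86 for the 4 genes and 0.03 for all tested genes. On day 7 against day 5, 13 were lower and 4 were not called, with a median of -1.54, against -1.35 for the 4 genes and 0.01 for all tested genes. None of the 17 was called higher in any of these comparisons. Of all 26943 tested genes, 8046, 7402 and 5995 were called higher in the same order of comparisons, and 28.8%, 23.6% and 19.9% were called lower. The CesA markers had medians of -2.04, -4.48 and -2.38 in the same comparisons, with 3, 5 and 4 of the 5 called lower, so marker transcripts moved with the ligase and transferase genes and their part in the result was not tested.

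Along the pathway the 4 genes were spread through the order of the 21 rather than at 1 end. On day 5 against day 0 the change of PtrHCT1 ranked 4 of 21 from the most negative, Ptr4CL3 ranked 9, PtrHCT6 ranked 13 and Ptr4CL5 ranked 16. The extremes of the other genes were the C4H gene Potri.013G157900, which fell by 2.43 on the log2 scale (edgeR adjusted p = 0.00363), and the CSE gene Potri.003G059200, at -0.43 and not called (edgeR adjusted p = 0.314).

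On day 7 against day 0, Ptr4CL3 ranked 6, PtrHCT1 ranked 9, Ptr4CL5 ranked 12 and PtrHCT6 ranked 17. The extremes of the other genes were again the C4H gene Potri.013G157900, at -5.47 (edgeR adjusted p = 5.94e-05), and the CCoAOMT gene Potri.008G136600, at -0.91 and not called (edgeR adjusted p = 0.0548). On day 7 against day 5, Ptr4CL3 ranked 5, Ptr4CL5 ranked 9, PtrHCT1 ranked 17 and PtrHCT6 ranked 18. There the extremes were the CCoAOMT gene Potri.001G304800, at -3.04 (edgeR adjusted p = 0.00207), and Potri.008G136600, at -0.28 and not called (edgeR adjusted p = 0.551). C3H (Potri.006G033300), which acts on the ester that HCT makes, had log2 fold changes of -1.22, -2.64 and -1.41 in the 3 comparisons (edgeR adjusted p = 0.00948, 0.000129 and 0.00726).

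**Figure D4:**
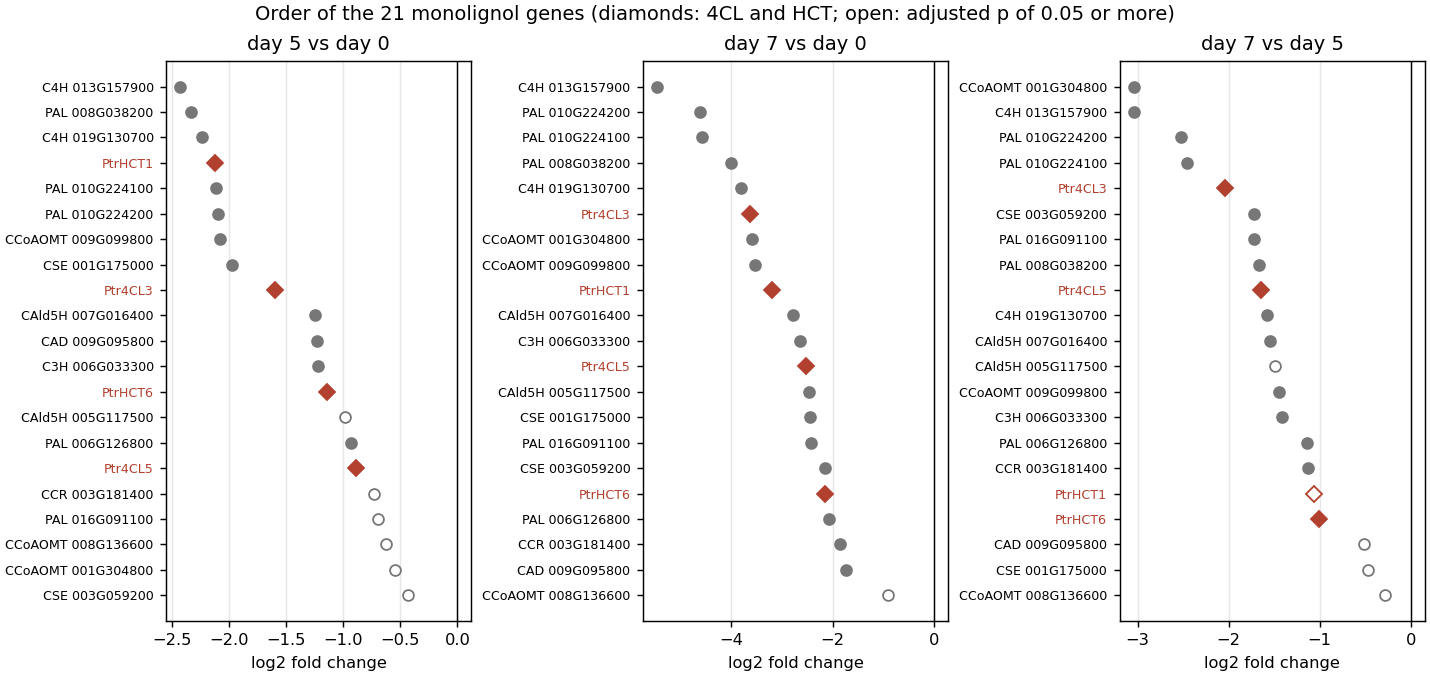
Log2 fold changes of 21 monolignol genes, ordered from the most negative in each comparison (day 5 against day 0, day 7 against day 0, day 7 against day 5); diamonds are the 4CL and HCT genes, and open points had an adjusted p of 0.05 or more. The 4 diamonds lie at ranks 4, 9, 13 and 16 on day 5 against day 0 and at ranks 6, 9, 12 and 17 on day 7 against day 0. On day 7 against day 5 they lie at ranks 5, 9, 17 and 18, the last 2 being PtrHCT1 and PtrHCT6.

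Likeness of pattern was described by Pearson's r of log2 CPM over the 12 libraries, against each of 26942 other tested genes. The points share their days and libraries, so genes that fall from day to day tend to have a high r with each other. Among the 100 genes most like Ptr4CL3 (r of at least 0.94) were 9 of the 17 other monolignol genes and 1 of the 5 CesA genes. The corresponding numbers of monolignol genes were 2 for Ptr4CL5, 0 for PtrHCT1 and 0 for PtrHCT6, and 100 genes are 0.371% of those compared. Entry to the 100 took an r of at least 0.91 for Ptr4CL5, but of at least 0.95 for PtrHCT1 and for PtrHCT6. With such unequal cut-offs, these numbers do not rank the 4 genes by their likeness to the pathway. The median r with the 17 monolignol genes was 0.95 for Ptr4CL3, 0.89 for Ptr4CL5, 0.86 for PtrHCT1 and 0.92 for PtrHCT6.

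The single gene most like Ptr4CL3 was Potri.009G148800 (r = 0.986), and the one most like PtrHCT1 was Potri.010G080000 (r = 0.989); neither has a name in the tables used here. Potri.010G080000 had only 0.239, 1.99, 0.675 and 0.404 CPM in day 7 replicates 1 to 4, so its r rests in part on values near the floor. Of the other members, the nearest to Ptr4CL3 was Ptr4CL5 at rank 260 (r = 0.919), and the nearest to PtrHCT1 was Ptr4CL5 at rank 902 (r = 0.888). For Ptr4CL5 the nearest member was Ptr4CL3, at rank 77 of its own list (r = 0.919). PtrHCT6 was nearest to Ptr4CL3, at rank 988 (r = 0.874). No other gene of the table had the same counts as any of the 4 genes in all libraries, which does not show that reads of similar copies were kept apart.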

How the data were processed

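The authors deposited whole-number read counts per gene identifier, not normalised, for 12 libraries. The reads went through TopHat, per the submitters' processing notes. Not given in the sources used here are the TopHat version, genome build, counter and use of strand. Reads shared by similar gene copies or overlapping genes may therefore be split or counted for each. Every count column matched a library title.

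Counts were tested with edgeR 4.0.16 in R 4.3.3 (filterByExpr with a minimum count of 10, TMM scaling, glmQLFit and glmQLFTest with 1 mean per day over all 12 libraries), with Benjamini-Hochberg adjustment over 26943 genes and a threshold of 0.05. Each standard error is the absolute log2 fold change divided by the root of its F statistic. A prior count of 2 entered log2 CPM. Ratios within libraries used exact permutation tests (scipy 1.17.1). Scripts were tested on simulated data. No 2 libraries of a day agreed within sampling noise. The growth notes mention planting batches but tie no library to one.

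The 4 genes and the lists were chosen with earlier results of these data known. All 4 were named. A further pathway gene is not reported here. Of other pathway genes, the largest and smallest change per comparison were named; C3H was added after its values were seen, as the step after HCT. The gene most like each member was to be named; because identifiers have no names here, only the 2 with the highest r are given. Lists of green tissue and phloem markers, defined by product names, were not analysed here for the same reason. The alternatives tried were scaling by upper quartile or by RLE, a filter of 1 CPM in 4 libraries or none, limma-voom (limma 3.58.1), DESeq2 1.42.0, the 2 days alone, a replicate block, each library left out, and for ratios a pseudocount of 2 and limma.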

Additional observations from a re-analysis of the deposited data

How the results depend on the processing

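Of 210 values recomputed with another scaling, filter, tool, set of days, replicate block or pseudocount, 207 kept their direction and their side of the threshold (counts: within 1.5 times). The other 3 were all PtrHCT1 on day 7 against day 5, which passed with DESeq2 (-1.08), limma-voom (-1.22) and the replicate block (-1.17), against -1.06 as reported. The block changed no other call of the 4 genes. Ratios kept their side of the threshold with limma, but some came nearer to it than with the permutation tests (adjusted p = 0.257). The limma adjusted p was 0.0717 for PtrHCT6 to PtrHCT1 on day 7 against day 0. It was 0.091 for that ratio on day 5 against day 0 and for Ptr4CL5 to Ptr4CL3 on day 7 against day 0. The labels do not say that replicate numbers pair plants, and the data did not settle it: correlations of same-numbered libraries' deviations from their day means ran from -0.171 to 0.487, and 2, 1 and 1 of 4 libraries correlated best with their own number on day 5 against day 0, day 7 against day 0 and day 7 against day 5. With each library left out in turn, the log2 fold change ranged from -1.06 to -0.71 for Ptr4CL5 on day 5 against day 0, from -1.61 to -0.81 for PtrHCT1 on day 7 against day 5 and from -1.15 to -0.82 for PtrHCT6 on day 7 against day 5. The log2 ratio of summed HCT to summed 4CL on day 7 against day 0 ranged from -0.35 to 0.48, reversing sign without day 0 replicate 2 (-0.11) or 3 (-0.06) or day 7 replicate 2 (-0.11) or 3 (-0.35). Its cause was not tested. With 3 against 4 libraries the exact test cannot go below p = 0.0571, so those p-values say nothing about stability. The number of the 4 genes called lower was 3 to 4, 4 and 2 to 3 when 1 library was left out. The number of libraries a day, 4, limits the precision more than depth does.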
